A study of Drosophila melanogaster with 7 samples.

Results

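Aminoacyl-tRNA synthetases are the enzymes that join each amino acid to its tRNA. The RefSeq gene table lists 33 Drosophila genes whose symbol is an amino acid name followed by RS, with or without the mitochondrial suffix -m, together with GluProRS. Of these, 19 had a probe annotated to them alone, among 11609 genes measured in all, and each of the 19 was read by 1 probe. The cytosolic enzymes measured were 9 of 18, and the mitochondrial enzymes 10 of 15. The other 14 genes were not analysed here, namely ArgRS, AsnRS, AspRS, CysRS, GlyRS, HisRS, LysRS, MetRS and TyrRS of the cytosol and AlaRS-m, LeuRS-m, MetRS-m, ProRS-m and SerRS-m of the mitochondrion. For SerRS-m there was 1 probe, but its annotation also named another gene and it was not used.

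Charged tRNAs are the substrate of translation, so a cell needs a synthetase activity for every amino acid, both in the cytosol and in the mitochondrial matrix. In animals most cytosolic enzymes and their mitochondrial counterparts are encoded by separate nuclear genes. Class I and class II synthetases have unrelated catalytic folds, and several cytosolic enzymes, among them GlnRS, GluProRS, IleRS and LeuRS, sit in a multisynthetase complex held together by the AIMP scaffold proteins. The larval salivary gland secretes large amounts of glue protein and is a tissue of heavy protein synthesis.

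RNA came from salivary glands of crawling larvae of the third instar, and 7 arrays with 2 colours each set 1 gland sample with cleaved Rad21 against 1 with intact Rad21. Rad21 closes the cohesin ring, and all flies carried w1118, 1 copy of hs-TEV (a TEV protease under a heat shock promoter) and at least 1 Rad21ex3 allele. The cleaved samples had Rad21ex15 Rad21(TEV) over Rad21ex3, so their Rad21 held sites for the protease. The intact samples had genomic Rad21 over Rad21ex3 on 3 arrays (1.1, 1.2 and 1.3) or Rad21ex3 with the transgene tgRad21 over Rad21ex3 on 4 arrays (2.1 to 2.4). All glands were heated at 37 °C for 45 min and kept for 10 to 12 h, so heat shock and protease were common to both sides of each array. The 2 sides were different fly stocks, and stock and cleavage cannot be told apart.

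Each value is a deposited ratio between the 2 samples of an array, read as log2, with its sign as deposited. No source used here names the numerator. A negative value likely means less transcript in glands with cleaved Rad21, because EcR, the ecdysone receptor gene known from other work to fall in cohesin mutant fly neurons, was negative on 7 of 7 arrays here (fitted −1.77 ± 0.17, SE, n = 7). If the true direction is the opposite, every sign below turns and the sizes stand. Ratios carry no expression level, so the tissue could not be checked by the abundance of its markers. In RNA from whole glands, fewer cells of a type and less RNA per cell cannot be told apart.

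Across the 7 arrays, 3 of 19 synthetase genes changed, all with negative ratios, and 16 did not pass the test (limma with a dye term, adjusted p under 0.05 over all genes). They were PheRS-m, TrpRS and SerRS. Over all genes 8.14% changed, 3.82% with negative and 4.32% with positive ratios, and 3 of 19 is 15.8%. At an unadjusted p under 0.05 there were 6 of 19 members (31.6%), against 20.3% of all genes. The median fitted log2 ratio was −0.18 over the 19 genes and 0.02 over all genes. It was −0.30 for the cytosolic enzymes, of which 8 of 9 were below 0, and 0.14 for the mitochondrial enzymes, of which 4 of 10 were below 0.

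**Figure D1:**
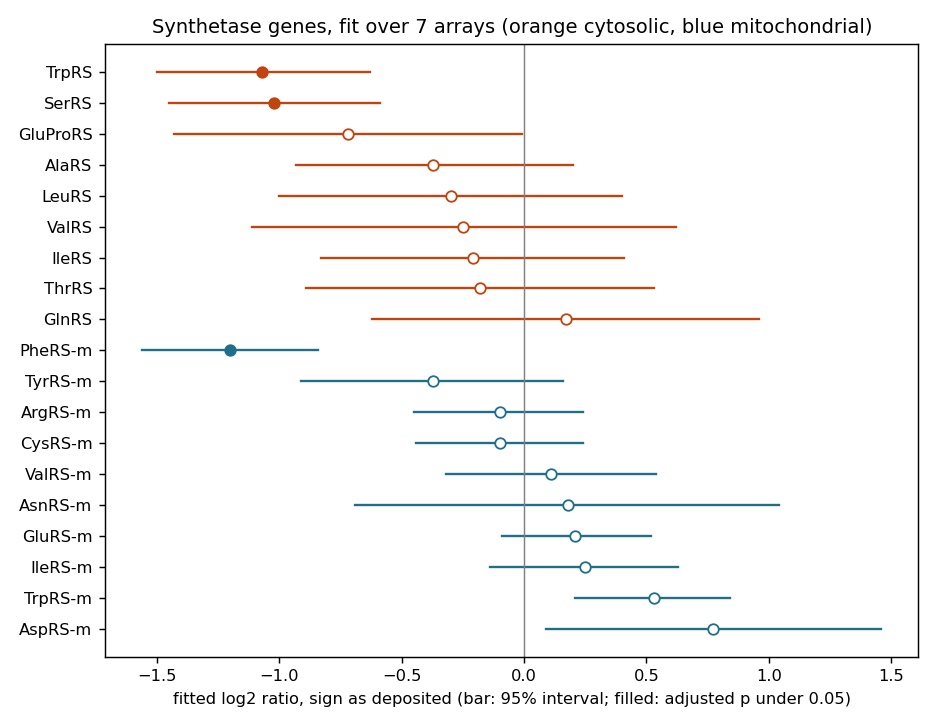
Fitted log2 ratio of each measured synthetase gene over 7 arrays (horizontal axis, sign as deposited) with its 95% interval, orange for cytosolic and blue for mitochondrial enzymes. Filled points passed an adjusted p under 0.05: TrpRS and SerRS lie near −1 among the cytosolic genes, and PheRS-m lies at −1.20 apart from the other mitochondrial genes, which run from −0.37 to 0.77.

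Among the cytosolic enzymes, TrpRS, the class I enzyme for tryptophan, read −0.90, −1.77 and −0.88 on arrays 1.1 to 1.3 and −1.45, −1.81, −1.10 and 0.04 on arrays 2.1 to 2.4. It was clearly negative on 6 arrays and close to 0 on array 2.4. The fitted log2 ratio was −1.07 ± 0.19 (SE, n = 7, limma adjusted p = 0.0139), a 2.09-fold difference. SerRS, the class II enzyme that charges serine tRNAs, read −0.91, −1.69 and −0.58 and then −1.36, −1.56, −1.33 and −0.05. The array order was much the same as for TrpRS, with array 2.4 again the one nearest to 0, and SerRS was negative on 7 of 7 arrays. Its fitted log2 ratio was −1.02 ± 0.19 (limma adjusted p = 0.0156), a 2.02-fold difference. Without array 1.2 neither passed the test, with limma adjusted p of 0.0531 for TrpRS and 0.0588 for SerRS. With arrays centred and scaled to a common spread, the values were −1.18 and −1.11 with limma adjusted p of 0.0800 and 0.0826.

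GluProRS, a fused enzyme that charges both glutamate and proline tRNAs and a member of the multisynthetase complex, read −0.10, −1.20 and −0.65 on the genomic Rad21 arrays and −0.71, −2.09, −1.36 and 0.77 on the transgenic ones. It was negative on 6 of 7 arrays, with a positive value on array 2.4. The fitted value of −0.72 ± 0.31 did not pass (95% interval −1.43 to −0.01, limma adjusted p = 0.236).

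AlaRS, the alanine enzyme, read 0.20, −0.68 and −0.06 on arrays 1.1 to 1.3 and −0.75, −0.97, −1.19 and 0.70 on arrays 2.1 to 2.4, and it was fitted at −0.37 ± 0.25. LeuRS, for leucine, was fitted at −0.30 ± 0.30 and ranged from −1.58 on array 1.2 to 1.22 on array 1.3. ValRS, the valine enzyme, was fitted at −0.25 ± 0.38 and ranged from −1.73 on array 2.3 to 1.85 on array 1.3. These 3 genes thus had values on both sides of 0, and their 95% intervals spanned 0.

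IleRS, the isoleucine enzyme of the complex, read 0.44, −0.57 and −0.12 on the genomic Rad21 arrays and 0.19, −0.99, −1.19 and 0.76 on the transgenic ones (fitted −0.21 ± 0.27). ThrRS, for threonine, read 0.27, −0.68 and 0.53 and then −0.09, −1.02, −1.49 and 1.0 (fitted −0.18 ± 0.31). GlnRS, for glutamine, read −0.02, −0.51 and 1.95 and then 0.32, −0.93, −1.10 and 1.01 (fitted 0.17 ± 0.34). All 3 were negative on arrays 1.2, 2.2 and 2.3 and at or above 0.76 on array 2.4, and none passed (limma adjusted p 0.789 to 0.882).

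**Figure D2:**
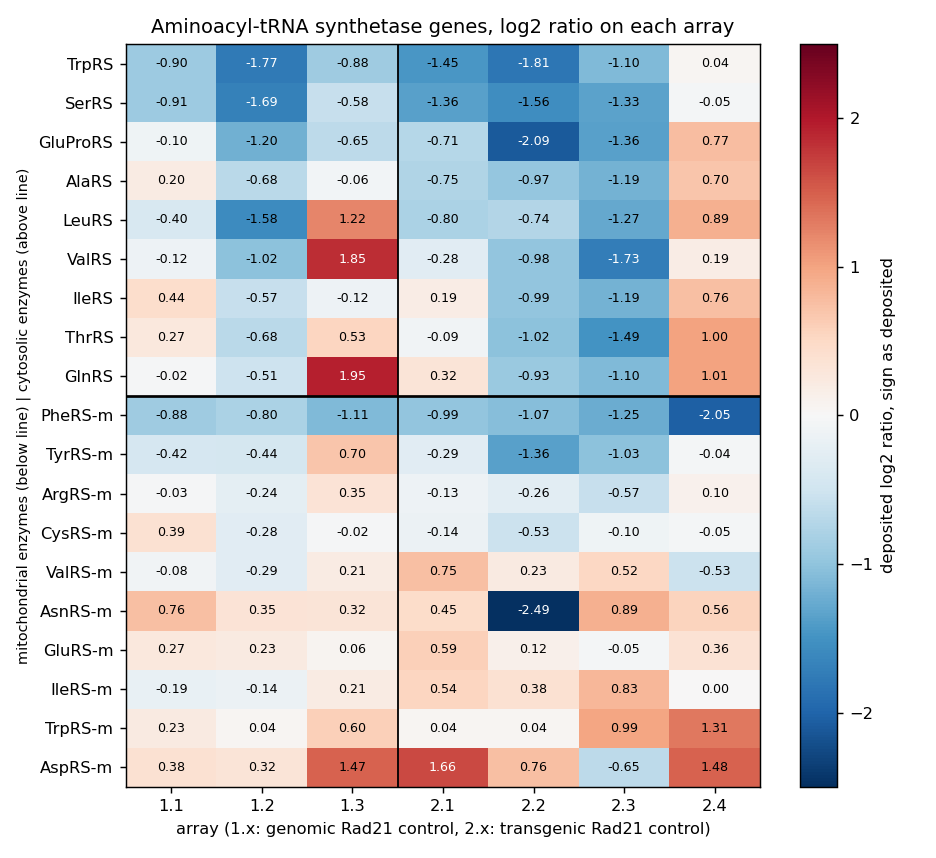
Deposited ratio, read as log2, of each of the 19 genes (rows, cytosolic above the line) on each of the 7 arrays (columns, genomic Rad21 controls left of the line), from blue (negative) to red (positive). The cytosolic rows are negative throughout on arrays 1.2, 2.2 and 2.3, and 8 of 9 are positive on array 2.4. The mitochondrial rows are of mixed sign on every array, with 8 of 10 positive on array 1.3.

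The 9 cytosolic enzymes shared their sign on 3 arrays. All 9 were negative on arrays 1.2, 2.2 and 2.3, where their medians were −1.02, −0.99 and −1.27. On array 2.4, 8 of 9 were positive (all but SerRS at −0.05), with a median of 0.76. Over all genes the shares with a negative value on these arrays were 45.0% on 1.2, 44.7% on 2.2, 37.7% on 2.3 and 59.3% on 2.4. On all 4 of these arrays the synthetases stood on the other side of 0 from most genes. The remaining arrays were mixed, with 6 of 9 negative on array 1.1 (median −0.10), 5 of 9 on array 1.3 (−0.06) and 7 of 9 on array 2.1 (−0.71).

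Array 2.4 held the highest value of 6 of the 9 cytosolic genes, against 9.54% of all genes, and array 1.3 held it for the other 3, LeuRS, ValRS and GlnRS. Array 2.3 held the lowest value of 5, against 13.9% of all genes. Arrays 2.3 and 2.4 set the same genotypes against each other and had the same dye orientation, with the cleaved sample in Cy3. The swing of the cytosolic median between them, from −1.27 to 0.76, is thus spread between arrays of the same design. Its source was not tested.

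The SD over the 7 arrays of the 9 cytosolic genes ran from 0.59 for SerRS to 1.15 for ValRS. The median SD over all genes was 0.56, and all 9 cytosolic genes were above it. Among the mitochondrial enzymes 3 of 10 were above it. TrpRS and SerRS, which passed the test, had the 2 smallest SDs among the cytosolic genes (0.64 and 0.59). The test itself rests on the spread over these same arrays, so a small SD favours passing.

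**Figure D3:**
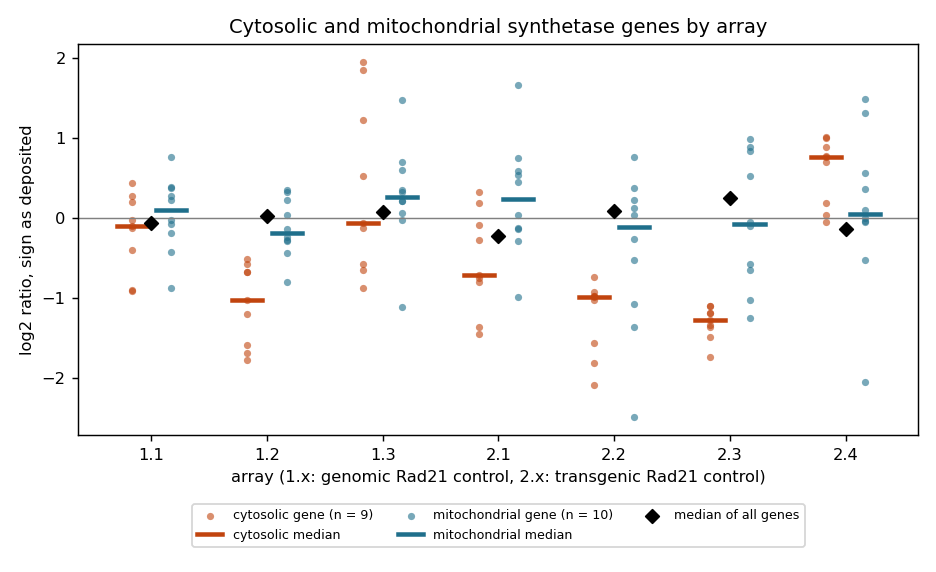
Log2 ratios of the cytosolic (orange, n = 9) and mitochondrial (blue, n = 10) genes on each array, with bars at the medians and black diamonds at the median of all genes. The cytosolic median lies below the mitochondrial one on 6 of 7 arrays and above it on array 2.4, at 0.76 against 0.05.

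The mitochondrial medians stayed nearer to 0 on most arrays. Per array they lay between −0.19 on array 1.2 and 0.26 on array 1.3, and it was −0.08 on array 2.3 and 0.05 on array 2.4. The number of negative genes ran from 2 of 10 on array 1.3 to 6 of 10 on arrays 1.2 and 2.3. Taking the mean of 7 arrays for each gene, the median was −0.38 for the cytosolic and 0.12 for the mitochondrial enzymes, against 0.01 over all genes. The cytosolic median was −0.18 without array 1.2, −0.23 without array 2.3, −0.65 without array 1.3 and −0.57 without array 2.4, and the mitochondrial one was 0.02 without array 2.3 and 0.04 without array 2.1. The cytosolic median minus the mitochondrial median was −0.20, −0.83 and −0.32 on arrays 1.1 to 1.3 and −0.95, −0.89, −1.19 and 0.72 on arrays 2.1 to 2.4. It was thus negative on 6 arrays and positive on array 2.4. From the means of 7 arrays the difference was −0.50, and it was −0.25 without array 2.3, −0.31 without array 1.2 and −0.21 on the genomic Rad21 arrays alone. No test was made of these medians, since the members were chosen with results known.

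PheRS-m, the single-chain mitochondrial enzyme for phenylalanine, was the only 1 of the 10 to pass the test. It read −0.88, −0.80 and −1.11 on the genomic Rad21 arrays and −0.99, −1.07, −1.25 and −2.05 on the transgenic ones. Every array was negative, and array 2.4, where most cytosolic enzymes were positive, gave its most negative value. The fitted log2 ratio was −1.20 ± 0.15 (SE, n = 7, limma adjusted p = 0.00347), a 2.3-fold difference and the most negative of the 19. It passed without any single array (limma adjusted p 0.00775 to 0.0167), and with arrays centred and scaled.

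The most positive members were also mitochondrial. AspRS-m, the aspartate enzyme, read 0.38, 0.32 and 1.47 on arrays 1.1 to 1.3 and 1.66, 0.76, −0.65 and 1.48 on arrays 2.1 to 2.4. It was positive on 6 of 7 arrays, with the exception of array 2.3, and its fitted value of 0.77 ± 0.30 did not pass (limma adjusted p = 0.183). Without array 2.3 it was 1.13 with a limma adjusted p of 0.0266. TrpRS-m, for tryptophan, read 0.23, 0.04 and 0.60 and then 0.04, 0.04, 0.99 and 1.31. It was positive on 7 of 7 arrays, though 3 of the values were 0.04, and its fitted value of 0.53 ± 0.14 fell just short of the threshold (95% interval 0.21 to 0.84, limma adjusted p = 0.0555). With array weights both passed (limma adjusted p = 0.0499 for AspRS-m and 0.0242 for TrpRS-m).

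IleRS-m, the isoleucine enzyme, read −0.19, −0.14 and 0.21 on the genomic Rad21 arrays and 0.54, 0.38, 0.83 and −0.00 on the transgenic ones (fitted 0.25 ± 0.17). GluRS-m, the glutamate enzyme, read 0.27, 0.23 and 0.06 and then 0.59, 0.12, −0.05 and 0.36 (fitted 0.21 ± 0.13). ValRS-m, for valine, read from −0.53 to 0.75 (fitted 0.11 ± 0.19). These 3 had 95% intervals that spanned 0 and reached at most 0.63.

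TyrRS-m, the tyrosine enzyme, read −0.42, −0.44 and 0.70 on arrays 1.1 to 1.3 and −0.29, −1.36, −1.03 and −0.04 on arrays 2.1 to 2.4 (fitted −0.37 ± 0.23). It was negative on 6 of 7 arrays and did not pass (limma adjusted p = 0.466). ArgRS-m, for arginine, read −0.03, −0.24 and 0.35 and then −0.13, −0.26, −0.57 and 0.10 (fitted −0.10 ± 0.15). CysRS-m, for cysteine, ranged from −0.53 to 0.39 (fitted −0.10 ± 0.15). For ArgRS-m and CysRS-m the 95% intervals ran from −0.45 to 0.24 and from −0.44 to 0.24.

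AsnRS-m, the asparagine enzyme, read 0.76, 0.35 and 0.32 on the genomic Rad21 arrays and 0.45, −2.49, 0.89 and 0.56 on the transgenic ones. A single array, 2.2, set it apart from 6 positive values, and the fitted value was 0.18 ± 0.38 on all 7 arrays. Without array 2.2 it was 0.55 and did not pass (limma adjusted p = 0.0974).

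For 5 amino acids both the cytosolic and the mitochondrial enzyme were measured, and their ratios could be subtracted within each array, which removes any shift of the whole array. In 4 of them both enzymes belong to the 19 genes, and for phenylalanine the cytosolic enzyme is read by the subunit genes alpha-PheRS and beta-PheRS. These differences were looked at after the single values were known and are given without a test. TrpRS minus TrpRS-m was −1.13, −1.81 and −1.48 on arrays 1.1 to 1.3 and −1.48, −1.86, −2.09 and −1.27 on arrays 2.1 to 2.4. The cytosolic tryptophan enzyme was thus the lower on every array, array 2.4 included, with a mean difference of −1.59 and an SD of 0.34 (n = 7).

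The other 3 pairs of members had the cytosolic enzyme lower on average but crossed 0. GluProRS minus GluRS-m averaged −0.99 with an SD of 0.85, negative on 6 of 7 arrays. IleRS minus IleRS-m averaged −0.45 with an SD of 1.0, and ValRS minus ValRS-m −0.41 with an SD of 1.3, each negative on 5 of 7 arrays. Phenylalanine went the other way. Subtracting PheRS-m from alpha-PheRS gave 0.91, 0.34 and 1.31 on the genomic Rad21 arrays and 0.54, 0.11, 0.52 and 2.34 on the transgenic ones, with a mean of 0.87 and an SD of 0.76. The cytosolic subunit was the higher on 7 of 7 arrays, by most on array 2.4. Between beta-PheRS and PheRS-m the difference averaged 0.51 with an SD of 0.79, was negative on 3 of 7 arrays, and fell to 0.29 without array 2.4.

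**Figure D4:**
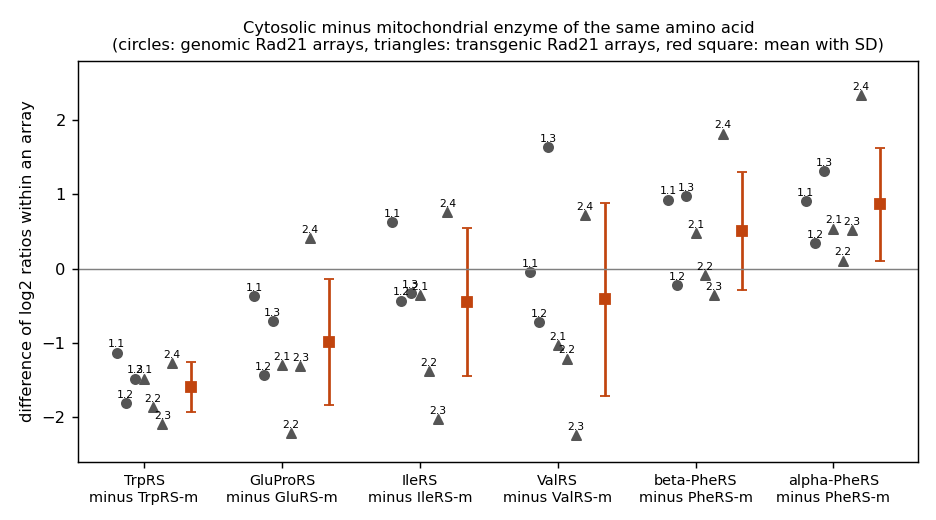
Log2 ratio of the cytosolic enzyme or subunit minus that of the mitochondrial enzyme within each array, for the 5 amino acids with both measured. Circles are genomic and triangles transgenic Rad21 arrays, and red squares give the mean with its SD. The 7 values for tryptophan lie between −2.09 and −1.13 and those of alpha-PheRS between 0.11 and 2.34, while the others cross 0.

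By catalytic class, 1 of 5 cytosolic class I enzymes changed (TrpRS) and 1 of 3 of class II (SerRS), with GluProRS, which holds both classes, counted in neither. Their median fitted log2 ratios were −0.25 and −0.37. The cytosolic enzymes of the multisynthetase complex had a median of −0.25 over 4 genes with 0 past the test, and at an unadjusted p under 0.05 there was 1, GluProRS. Those outside the complex had a median of −0.37 over 5 genes with 2 past the test. Over all genes 8.14% passed, and 20.3% were at an unadjusted p under 0.05. The groups are small, and neither TrpRS nor SerRS passed without array 1.2. The difference between these groupings was not tested.

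The intact sample was of another kind in each set of arrays, and 0 of 19 synthetase genes passed the test of the difference between genomic and transgenic Rad21 controls in limma. Over all genes 0.0% were past the test in limma (0 of 11609, with 502 at an unadjusted p under 0.05), and 0 of the 19 were below 0.05 unadjusted. TrpRS averaged −1.18 ± 0.51 on the genomic and −1.08 ± 0.80 on the transgenic arrays (SD, n = 3 and 4), and SerRS −1.06 ± 0.57 and −1.08 ± 0.69. PheRS-m averaged −0.93 ± 0.16 and −1.34 ± 0.49. The means of these 3 genes were near each other, but the 95% intervals of the fitted differences reached ±0.98, ±0.95 and ±0.74 around 0.04, 0.14 and 0.33, so differences of that order could not be seen. ValRS had the widest gap, at 0.24 ± 1.47 and −0.70 ± 0.83 (fitted difference 1.08, limma adjusted p = 1.0).

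Genes whose products work beside the synthetases were grouped by role, and the counts that follow stand beside 8.14% of all genes past the test. Among 5 measured scaffold proteins and other subunits, AIMP3 alone passed, with a negative ratio, and the list's median was −0.27. AIMP3, a scaffold protein of the multisynthetase complex, read −0.82, −1.43 and −0.91 on arrays 1.1 to 1.3 and −1.30, −1.86, −0.92 and −0.54 on arrays 2.1 to 2.4. All arrays were negative and array 2.4 was the least so. The fitted value was −1.07 ± 0.16 (limma adjusted p = 0.00664), and it passed without any single array. The subunit gene beta-PheRS of the cytosolic phenylalanine enzyme was fitted at −0.65 ± 0.23 (limma adjusted p = 0.147) and alpha-PheRS at −0.27 ± 0.18. AIMP2 was fitted at −0.27 ± 0.15 and AIMP1 at −0.05 ± 0.18. The list's per-array medians were −0.99, −1.11 and −0.73 on arrays 1.2, 2.2 and 2.3 and 0.10 on array 2.4.

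The steps after charging were read from few genes, beside 8.14% of all genes past the test. With so few genes, 0 calls cannot be told from that share. Of 4 measured cytosolic elongation factor genes (eEF1alpha2, eEF1gamma, eEF1delta and eEF5), 0 passed (median −0.15, and 1 at an unadjusted p under 0.05). The genes eEF1alpha1, eEF1beta and eEF2 had no value here. That 1 was eEF1delta, a subunit of the exchange factor complex of eEF1, at −0.72 ± 0.20 (limma adjusted p = 0.0663), with −1.56 on array 1.2, −1.70 on 2.2 and 0.63 on 2.4. eEF1gamma was at −0.27 ± 0.14. Of 4 mitochondrial elongation factors 0 passed in limma, and 0 were below 0.05 unadjusted (median 0.13), with mEFTu1 at 0.28 ± 0.21 and mEFTs at 0.24 ± 0.13. The mitochondrial tRNA amidotransferase genes GatA and GatB were at 0.36 ± 0.14 and −0.16 ± 0.16, and neither passed.

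Cells are known to raise synthetase genes through the kinase GCN2 and the transcription factor ATF4 (crc in flies) when amino acids are short. Of 11 genes listed around this response 6 were measured, and Thor, eIF2alpha, eIF2gamma, AsnS and aay had no value. Of the 6, 0 passed in limma (median 0.14, 1 at an unadjusted p under 0.05). The activity of the response itself was not measured. Gcn2 was at 0.15 ± 0.12 and crc at 0.13 ± 0.15. The largest were eIF2beta, a subunit of the initiation factor that carries the initiator tRNA, at −0.63 ± 0.18 (limma adjusted p = 0.0800), and the folate enzyme gene Nmdmc at 0.21 ± 0.41. Of 11 genes of tRNA maturation and modification 1 passed, Rpp30, of the tRNA-trimming RNase P, at 0.68 ± 0.16 (limma adjusted p = 0.0387, lost without any array except 1.3, up to 0.114). The next in size was the RNA kinase gene cbc at −0.23 ± 0.12, and the list's median was −0.01.

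Amino acid transporters, which supply the substrate of charging, gave 4 of 15 past the test, 3 negative and 1 positive (median −0.14). That is 26.7%, against 8.14% of all genes, 3.82% negative and 4.32% positive. slif, a transporter of cationic amino acids known as a nutrient sensor input in the fat body, read −1.27, −1.04 and −1.47 on the genomic Rad21 arrays and −2.03, −2.08, −2.98 and −2.25 on the transgenic ones. It was negative on 7 of 7 arrays and did not turn on array 2.4. The fitted difference of 1.0 ± 0.31 between the 2 sets had an unadjusted limma p of 0.0135 and an adjusted p of 1.0. Over all genes 0.0% passed this test, and 502 of 11609 were at an unadjusted p under 0.05. The fit over all arrays gave −1.92 ± 0.22 (limma adjusted p = 0.00211). The transporter gene path was at −1.50 ± 0.27, negative on 7 of 7 arrays, and CG8785 at −1.14 ± 0.23, negative on 6 of 7 (limma adjusted p = 0.0135 and 0.0231). CG8785 lost its call without array 1.1, 1.2, 1.3, 2.1 or 2.4 (up to 0.0922). NAAT1, a nutrient amino acid transporter, was positive on 7 of 7 arrays at 0.84 ± 0.16 (limma adjusted p = 0.0162, and 0.0635 without array 2.4).

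**Figure D5:**
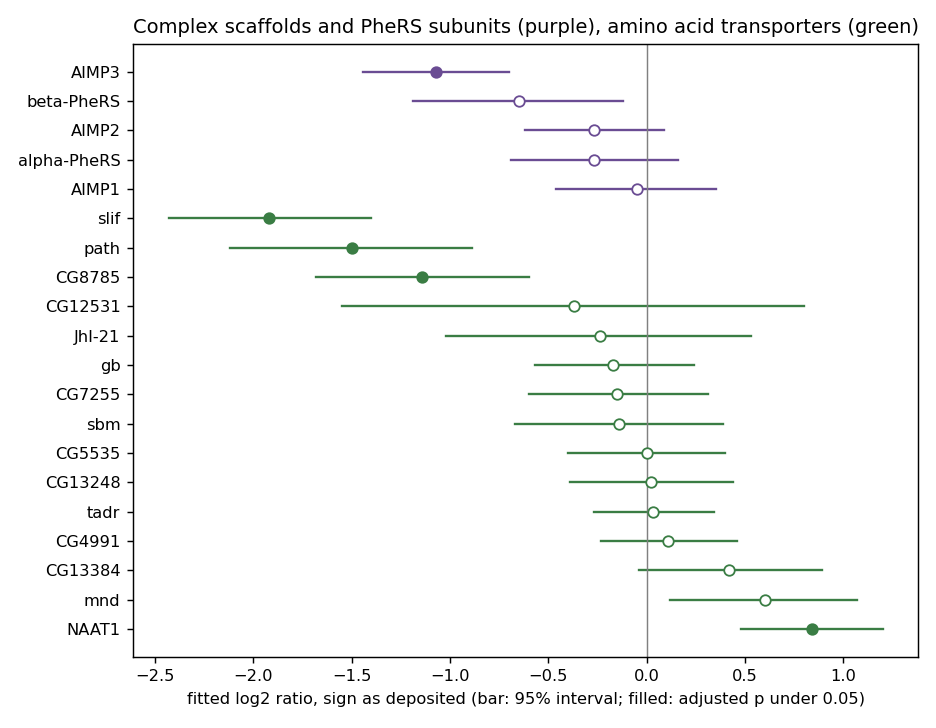
Fitted log2 ratio (horizontal axis, sign as deposited) with its 95% interval for the 5 measured scaffold proteins and PheRS subunits (purple) and the 15 amino acid transporters (green). Filled points passed an adjusted p under 0.05, among them AIMP3 at −1.07, slif at −1.92, path at −1.50, CG8785 at −1.14 and NAAT1 at 0.84.

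Markers of tissues that can be dissected with the gland were read as ratios only. Their counts stand beside 8.14% of all genes past the test. Of 5 fat body genes 1 passed, Apoltp at 0.91 ± 0.19, while Fbp1 was at −1.10 ± 0.32 (limma adjusted p = 0.0847), Lsp2 and apolpp were both at −0.16, and the list's median was −0.16. Of 5 hemocyte genes 0 passed in limma (0 at an unadjusted p under 0.05), and of 4 muscle genes 1 did, TpnC73F at −1.19 ± 0.21. Per-array medians on arrays 2.3 and 2.4 were −0.27 and −0.20 for fat body, 0.39 and −0.11 for hemocytes and −0.67 and −0.60 for muscle, where the cytosolic synthetases were at −1.27 and 0.76. Of 9 salivary gland genes 3 were negative past the test, Sgs1, sage and Eig71Ee, with a median of −0.48. The others did not pass and were of mixed sign. Sgs4, Sgs5 and fkh were at −0.48, −1.06 and −0.01. The genes ng1, ng2 and ng3 were above 0, at 0.89 ± 1.49, 1.03 ± 0.93 and 0.66 ± 0.83. The list's medians on arrays 2.3 and 2.4 were −1.43 and −0.91. The part of tissue makeup in the synthetase values was not tested.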

How the data were processed

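The deposited values are log2 ratios, 1 per probe and array, for 14569 probes. No label or header states how the authors corrected background or normalized them, or the log base. Base 2 was assumed, and the fold differences rest on it. Of the deposited values, 2 exceed 11.1, the natural log of the highest 16-bit intensity, which does not settle the base. Array medians ran from −0.22 to 0.25. Arrays of opposite dye orientation correlated between 0.011 and 0.481 over probes, so the ratios were taken as already turned to 1 direction. Per the channel labels, Cy5 marked cleaved glands on 4 arrays and Cy3 on 3, the reverse of the split in the design text. Probes were named through the platform annotation, updated with the RefSeq gene table of Release 6. Of these, 12657 had 1 gene symbol (11609 genes), 96 several and 1816 none, and only the first were used. Probes of a gene were averaged.

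Gene means were fitted with limma 3.58.1 (lmFit, eBayes) in R 4.3.3 with a dye term, and p-values were adjusted by Benjamini-Hochberg over all genes. Residual degrees of freedom were 5, and eBayes added 3.1. The dye term passed for 0 genes. A fit with a set term compared the kinds of control. The number of arrays limits precision. The design text calls the 7 pairs independent biological samples. Pairs of enzymes for the same amino acid were subtracted within arrays, with no test. The fit was tested on simulated data. Alternatives left out each array or set, or changed the dye term, centring, scaling, array weights, probe summary and threshold. Every member was named, with values by array for those past the test, the 3 most negative and 3 most positive of each compartment, and the enzymes of the 3 pairs that differed most. From each list the genes past the test and the 2 largest were named. Other genes or array values given, among them alpha-PheRS, AIMP1, AIMP2, Gcn2 and crc and the arrays of AlaRS and AsnRS-m, were chosen after their values were seen. The members and lists were chosen with earlier results of these data known.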

Additional observations from a re-analysis of the deposited data

Results flagged for a closer look

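In 38 groups of values tested for a sample far from the others (each gene over 7 arrays and over the 4 transgenic Rad21 arrays), 4 stood out by Dixon's criterion, where chance gives about 1 in 20. AsnRS-m read −2.49 on array 2.2, with the nearest other value at 0.32 over all arrays and 0.45 over the transgenic ones, which makes 2 of the 4. PheRS-m read −2.05 on array 2.4, with the nearest at −1.25. SerRS read −0.05 on array 2.4, with the nearest transgenic array at −1.33. Both of the last genes thus stood apart on array 2.4, in opposite directions. No synthetase differed between the 2 kinds of control by a test, and none had all genomic arrays on one side of 0 and all transgenic arrays on the other.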

How the results depend on the processing

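The count of 3 changed synthetases was 1 (PheRS-m) with arrays centred and scaled or at an adjusted p under 0.01, and 5 (with AspRS-m and TrpRS-m) with array weights, which rest largely on array 1.2 (weight 5.88, against 0.335 to 1.42 for the others). Over all genes these settings gave 721 (scaled) and 1344 (weights). The synthetase count was 0 on the genomic and 0 on the transgenic Rad21 arrays alone by limma, where 28 and 47 of all genes passed. Leaving out single arrays gave 1 to 4. Over all genes the count of 945 was 331 at an adjusted p under 0.01, 1446 under 0.1, and 461 to 925 without single arrays. Of the 945 genes, 0 changed the sign of the fitted value under the 15 settings fitted gene by gene. They were selected on these same arrays, so a stable sign adds no support to the calls. Of the genes that did not pass, 10 synthetases changed the sign of the fitted value under at least 1 of 15 settings. Without single arrays the fitted values ran from −0.20 to 0.03 for ArgRS-m, −0.44 to 0.04 for IleRS, −0.53 to 0.09 for LeuRS, −0.43 to 0.20 for ThrRS, −0.68 to 0.21 for ValRS, −0.00 to 0.26 for ValRS-m and −0.16 to 0.60 for GlnRS. For all but GlnRS the sign turned without array 2.3, and for GlnRS without array 1.3. On the genomic arrays alone they were ArgRS-m (0.03), CysRS-m (0.03), IleRS-m (−0.04), ThrRS (0.04), ValRS (0.24) and ValRS-m (−0.05). On the transgenic arrays alone they were AsnRS-m (−0.15) and GlnRS (−0.17). ValRS-m was −0.15 with array weights. Nmdmc was −0.04 with array weights, −0.24 to 0.65 without single arrays (below 0 without array 2.2 or 2.3) and −0.53 on the genomic arrays. AIMP1 was −0.15 to 0.06 without single arrays (above 0 without array 2.2 or 2.3). The causes of these changes were not tested. The cytosolic minus mitochondrial median of −0.50 stayed below 0 under every setting run. Of 648 values of single genes and pairs, 36 lost and 4 gained their call. Pairs had no test, and genes that had not passed had no call to lose. The 648 are thus no base for a share of calls lost. eEF1delta gained it without array 2.4 (−0.91, limma adjusted p = 0.0481). The replicate numbers 1 to 3 in both sets mark no shared sample, and the deviations of same-numbered arrays correlated at 0.00938, 0.325 and −0.242. With the replicate block (no dye term, since dye and number coincide) 0 genes differed between the sets by limma, as without it. The medians fitted with the dye term and the repeats of the pair differences were chosen after seeing the data.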
